A study of Mus musculus with 2 samples.

Results

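The genes described here encode the mouse conjugating enzymes of the UDP-glucuronosyltransferase (Ugt), glutathione transferase (Gst, with the microsomal Mgst genes) and sulfotransferase (Sult) families. They were chosen by symbol, as all protein-coding genes whose name follows the pattern of these families, a rule that uses no expression value. The pattern matched 67 symbols of the annotation, of which 66 were found in the deposited gene tables among 21474 protein-coding genes, and Ugt2a1 was not analysed here. The 66 genes lie on 12 chromosomes and comprise 9 Ugt1a genes, 11 other Ugt genes, 21 genes of cytosolic Gst classes, 4 membrane-bound or mitochondrial Gst genes (Mgst and Gstk) and 21 Sult genes. Expression was measured by total RNA sequencing of intestine from mouse embryos of strain B6NCrl at embryonic day 15.5. The libraries form 1 group, labelled healthy and with no treatment or mutation named, replicate 1 made from a pool of 78 and replicate 2 from another pool of 62 male and female embryos. No second age, tissue or treatment was analysed, so the comparisons are between genes, between the 2 estimates deposited for each gene, and between the libraries.

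Conjugating enzymes attach a polar group to lipophilic compounds, which makes them soluble and open to export. Ugt enzymes sit in the endoplasmic reticulum and transfer glucuronic acid from UDP-glucuronic acid to bilirubin, steroids, bile acids, phenols and drugs. Gst enzymes join glutathione to electrophiles, and Sult enzymes of the cytosol transfer sulfate from the donor PAPS to phenols, catecholamines and steroids. In the adult body liver and intestinal epithelium are the main sites of glucuronidation, and the intestine is the first tissue that meets compounds from food. The Ugt1a genes share one set of downstream exons, each gene contributing its own first exon with its own promoter. The first exon encodes the part of the enzyme that binds the substrate, and the shared exons encode the part that binds the sugar donor.

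Total estimated counts were 34406872 in replicate 1 and 40669822 in replicate 2, and mouse genes took 33665128 and 39953610 of them. Levels are given as TPM, a length-corrected share of all transcripts on which genes can be compared, with the value of replicate 1 before that of replicate 2. For a gene of 1 kb with a count of 0, the depth allows a level of up to 0.125 and 0.107 TPM (3 counts), counting error alone considered. All 8 markers of gut epithelium were detected, with summed levels of 5223 and 4715 TPM. Marker genes of neighbouring organs were also present and differed between the pools: 6 pancreas markers summed to 5368 and 1867 TPM, 6 adrenal and gonad markers to 54.9 and 10.2 TPM, and 8 liver markers to 710 and 508.5 TPM. The pools were biological replicates by their labels, and a chi-square per degree of freedom of 18.3 over 19732 genes, set against counting error only, shows that they are not 1 library deposited in duplicate.

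Transcripts of 39 of the 66 genes were detected, which here means that each library gave 1 TPM or more, where 62.7% of all protein-coding genes were. The other 27 genes stayed below a TPM of 1 in both libraries, and no gene crossed the limit between them. Of these 27 genes 15 had no count in either library and 12 had a few, the most being 24 counts for Gsto2. The lowest detected value was 2.05 TPM, for Ugt2b35 in replicate 2, and the highest value below the limit was 0.80 TPM, for Gsto2 in replicate 1. The number detected depends on the limit, with 40 genes at 0.5 TPM and 33 at 5 TPM. Among detected genes the median was 27.4 and 27.7 TPM for the conjugating enzymes, against 17.7 and 17.8 TPM for all detected protein-coding genes. A level of 10 TPM in both libraries was reached by 30 of the 66 genes and a level of 100 TPM by 9. Together the 66 genes held 3484 and 3376 TPM, or 0.348% and 0.338% of the total, and the 5 highest genes held 63.9% and 63.0% of that sum.

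The families differed in level far beyond the spread between the pools. Cytosolic Gst genes summed to 2365 ± 49.1 TPM (SD, n = 2, as for all such values here) and the Mgst and Gstk genes to 672 ± 26.6 TPM. Ugt genes outside Ugt1a summed to 190.9 ± 2.09 TPM, Sult genes to 122.8 ± 0.311 TPM and Ugt1a genes to 79.3 ± 2.17 TPM. Within the Sult sum opposite differences offset each other. Sult1d1 was higher in replicate 2 (37.1 and 47.3 TPM), Sult1b1 (41.2 and 36.0 TPM) and Sult6b2 (23.0 and 19.4 TPM) lower. The SD of Sult1d1 alone was 7.25 TPM, so the SD of the Sult sum does not describe its genes. All 4 Mgst and Gstk genes and 19 of 21 cytosolic Gst genes were detected, compared with 4 of 9 Ugt1a genes, 5 of 11 other Ugt genes and 7 of 21 Sult genes. In bulk tissue a low level from many cells and a high level from few cells cannot be told apart, and neither can fewer cells of a type and less RNA per cell.

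**Figure D1:**
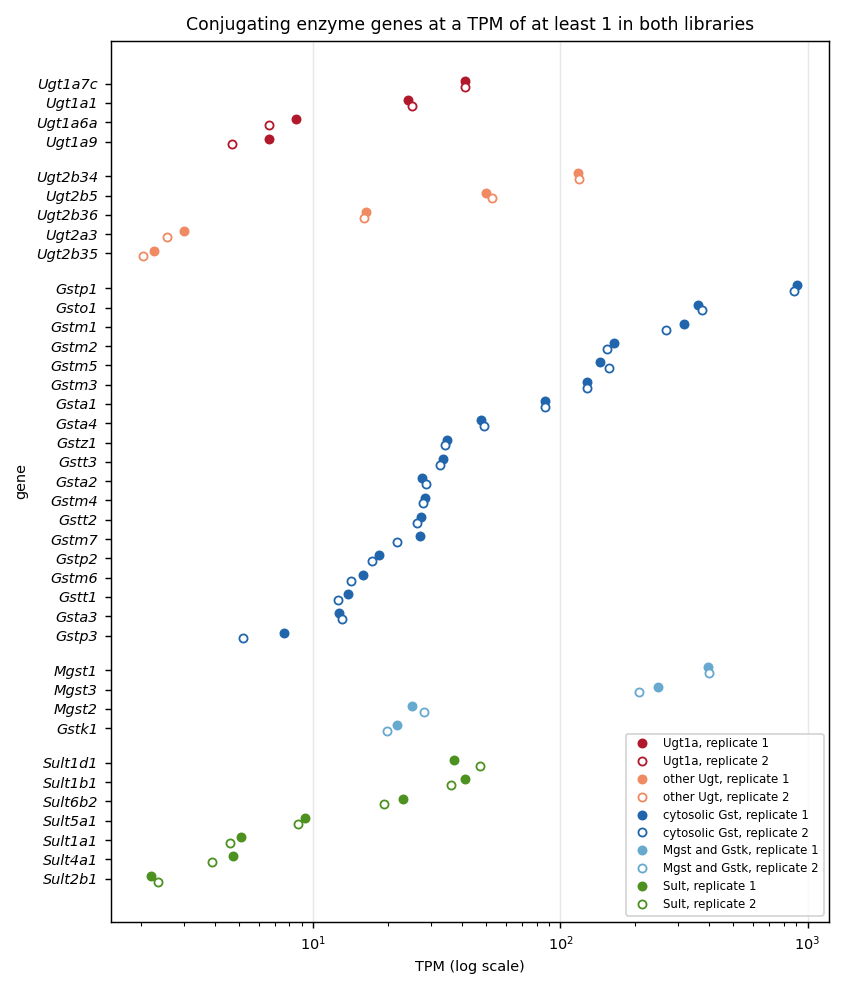
Levels of the 39 detected genes (TPM, log scale), grouped by family and ordered by mean within each, with filled circles for replicate 1 and open circles for replicate 2. Gstp1 lies farthest right at 904 and 882 TPM, Ugt2b35 farthest left at 2.26 and 2.05 TPM, and the circles of a gene mostly touch.

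The Ugt1a genes occupy 165 kb of chromosome 1 on the plus strand (GRCm38, the mm10 assembly). Their first exons follow each other in the order Ugt1a10, Ugt1a9, Ugt1a8, Ugt1a7c, Ugt1a6b, Ugt1a6a, Ugt1a5, Ugt1a2 and Ugt1a1. For Ugt1a6a and Ugt1a6b, whose annotation also starts further upstream, this is the first coding exon. Exon 2 (88215044 to 88215175), exon 3 (88215795 to 88215882) and exon 4 (88216138 to 88216357) are annotated identically in all 9 genes. Exon 5 starts at 88218127 in every gene and ends at 88218997 in 6 of them, while that of Ugt1a7c runs on to 88220002. The coding part of the shared exons is 735 bases long and identical in all 9 genes, and the coding part of the first exons is 849 to 870 bases long. The stretches below show the last 60 bases of the first exon in lower case and the first 30 bases of exon 2 in capitals, for the 4 detected genes and for Ugt1a6b, the closest relative of Ugt1a6a. The capitals are the same in every line, so a read that lies wholly in them carries no information on which gene was transcribed, and only the lower-case part tells the genes apart. The exon 1 parts lie at chr1:88071619-88071678 for Ugt1a9, chr1:88095919-88095978 for Ugt1a7c, chr1:88107740-88107799 for Ugt1a6b, chr1:88139272-88139331 for Ugt1a6a and chr1:88212812-88212871 for Ugt1a1, and the exon 2 part at chr1:88215044-88215073.
Ugt1a9: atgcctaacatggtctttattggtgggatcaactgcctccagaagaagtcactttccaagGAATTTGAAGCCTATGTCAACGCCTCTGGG
Ugt1a7c: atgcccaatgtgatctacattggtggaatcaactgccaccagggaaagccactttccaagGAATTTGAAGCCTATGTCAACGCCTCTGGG
Ugt1a6b: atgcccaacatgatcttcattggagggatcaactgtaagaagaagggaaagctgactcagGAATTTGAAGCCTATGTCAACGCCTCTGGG
Ugt1a6a: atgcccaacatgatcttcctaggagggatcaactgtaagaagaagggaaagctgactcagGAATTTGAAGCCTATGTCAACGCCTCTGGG
Ugt1a1: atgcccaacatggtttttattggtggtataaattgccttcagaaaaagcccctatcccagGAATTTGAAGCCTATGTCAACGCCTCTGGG

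Of the 9 genes, 4 held nearly all of the summed Ugt1a level. These values are estimates per gene and not counts of reads on first exons. Ugt1a7c (ENSMUSG00000090124.3), whose human counterpart UGT1A7 conjugates phenolic compounds, was highest at 41.1 and 40.9 TPM and held 51.8 ± 1.23% of the Ugt1a sum. Ugt1a1 (ENSMUSG00000089960.1), the enzyme that conjugates bilirubin, followed at 24.2 and 25.0 TPM. Ugt1a6a (ENSMUSG00000054545.13), an enzyme of simple planar phenols, stood at 8.51 and 6.60 TPM, and Ugt1a9 (ENSMUSG00000090175.1) at 6.60 and 4.69 TPM. The order of Ugt1a7c, Ugt1a1 and Ugt1a6a was the same in both libraries with no overlap, whereas the range of Ugt1a9 met that of Ugt1a6a. Only Ugt1a7c is annotated beyond 88219004 in exon 5. Within the locus, reads past that point could be assigned to Ugt1a7c alone, whichever first exon they came from. How far its level and share rest on such reads was not tested.

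The other 5 Ugt1a genes were near or at 0. Ugt1a6b stood at 0.24 and 0.31 TPM, Ugt1a2 at 0.11 and 0.15 TPM and Ugt1a5 at 0.06 and 0 TPM. Ugt1a10 was listed at 0 and 0.05 TPM, and Ugt1a8 had no count in either library. Position along the locus did not order the levels. The highest gene lies between Ugt1a8 and Ugt1a6b, the next highest beside the shared exons, and both have a neighbour at or near 0. The first exons of Ugt1a6a and Ugt1a6b, the most alike pair, are identical at 97.0% of their 858 coding bases. Their levels nevertheless lay far apart in both libraries, with 474 and 450 counts for Ugt1a6a against 12.3 and 18.4 for Ugt1a6b.

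**Figure D2:**
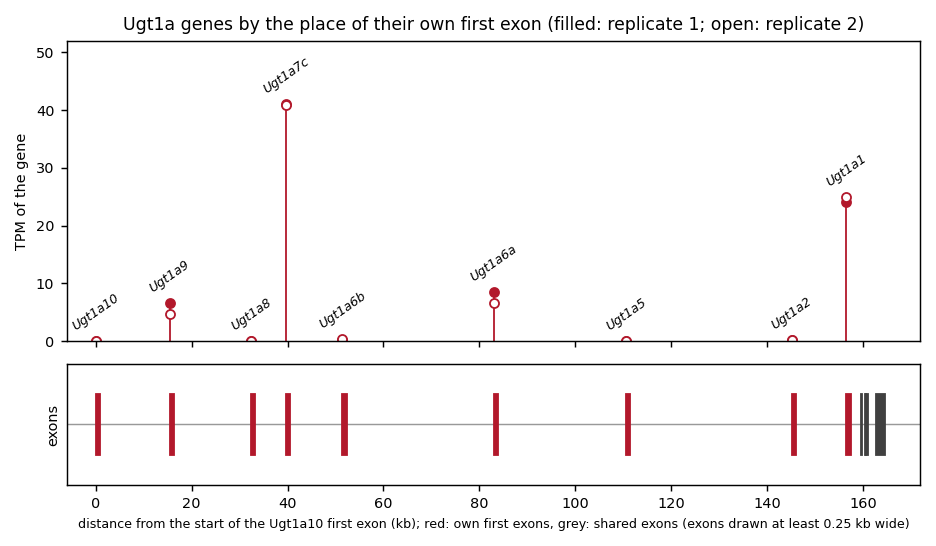
Upper panel: TPM of each Ugt1a gene at the start of its own first exon, with lines to the mean of the libraries, filled circles for replicate 1 and open circles for replicate 2. Lower panel: exons by distance from the start of the Ugt1a10 first exon (kb), own first exons in red and shared exons in grey. Ugt1a7c (41.1 and 40.9 TPM) stands between Ugt1a8 and Ugt1a6b, and Ugt1a1 (24.2 and 25.0 TPM) next to the shared exons.

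Because reads in the shared exons must be divided between genes, the deposited posterior mean TPM was compared with the deposited maximum-likelihood TPM. Both are the authors' estimates from the same reads. For reads that can be divided, the posterior mean averages over the divisions that the model allows, and the maximum-likelihood value takes the best one. The posterior mean also lies above 0 where no read was divided. Ugt3a1, whose count was 0 with a posterior SD of 0 in both libraries, had a posterior mean of 0.50 and 0.43 TPM. For the whole Ugt1a family the posterior mean summed to 79.8 and 77.1 TPM and the maximum-likelihood estimate to 80.8 and 77.7 TPM, a ratio of 0.987 and 0.992. The total was thus nearly the same under both. For the detected genes the division was also nearly the same. Posterior mean and maximum-likelihood TPM were 40.3 and 41.1 for Ugt1a7c in replicate 1, 23.3 and 24.2 for Ugt1a1, 8.70 and 8.51 for Ugt1a6a, and 6.44 and 6.60 for Ugt1a9. Averaged over the libraries, the log2 ratio of posterior mean to maximum-likelihood TPM (0.1 added to both) ran from -0.05 to 0.05 in these 4 genes, with a median of -0.02 over all protein-coding genes at 1 TPM or more. None of the 39 detected conjugating enzyme genes differed by more than 1.5-fold between the estimates, where 1.42% of 14087 protein-coding genes at 1 TPM or more in either estimate did.

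The estimates parted at the bottom of the scale. Ugt1a10 had a posterior mean of 0.34 and 0.37 TPM and a maximum-likelihood value of 0 and 0.05 TPM, the only Ugt1a gene over the 1.5-fold limit (mean log2 ratio 1.89). Ugt1a8 had a posterior mean of 0.05 TPM in both libraries and a maximum-likelihood value of 0, which with the added 0.1 lies on the limit and not beyond it. Ugt1a6b had a posterior mean of 0.35 and 0.38 TPM and a maximum-likelihood value of 0.24 and 0.31 TPM. For Ugt1a10 the deposited credibility bounds ran from 0.0297 to 0.744 TPM in replicate 1 and from 0.0552 to 0.782 TPM in replicate 2. Even these upper bounds lie below the lower bound of Ugt1a9, 5.35 TPM in replicate 1 and 3.68 TPM in replicate 2. Across all 66 genes 9 differed by more than 1.5-fold, all of them below 1 TPM, beside 11.2% of all protein-coding genes.

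The posterior SD of the count, deposited with the tables, gives the uncertainty of the division in counts, with the annotation taken as given. In replicate 1 it was 42.5 counts for Ugt1a7c (1.56% of its count), 38.6 for Ugt1a1 (3.14%), 26.8 for Ugt1a6a (5.66%) and 23.1 for Ugt1a9 (6.98%). For Ugt1a6b it was 6.96 counts, or 56.5% of its 12.3 counts. The uncertainty relative to the count was therefore larger in the lower genes. The estimated counts of the Ugt1a genes above 0 were fractional, but the family summed to 4776.01 and 5559.00, within 0.02 of a whole number. The fractions thus cancelled within the family.

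**Figure D3:**
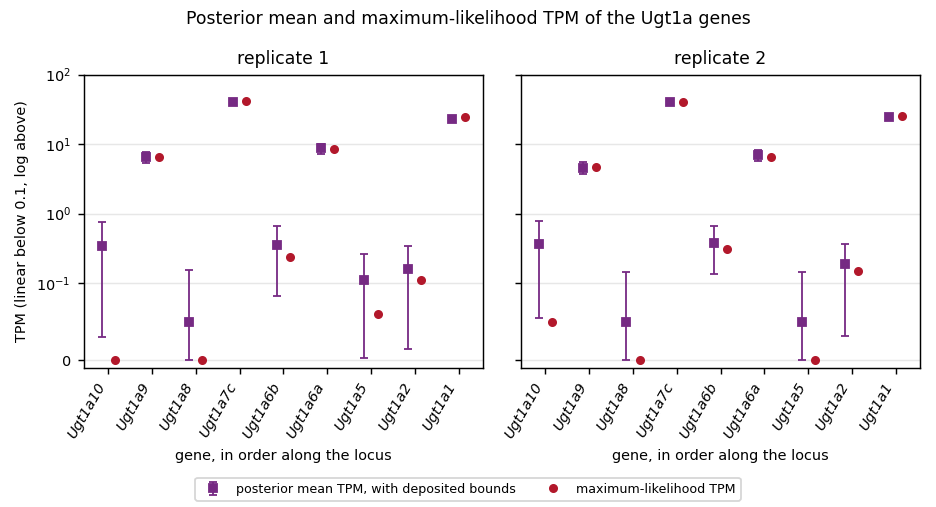
Posterior mean TPM (purple squares, bars to the deposited credibility bounds, whose level is not stated) and maximum-likelihood TPM (red circles) of the 9 Ugt1a genes in locus order, on an axis that is linear below 0.1 TPM and logarithmic above. The estimates of Ugt1a9, Ugt1a7c, Ugt1a6a and Ugt1a1 coincide in both libraries, while those of Ugt1a10 lie apart (0.34 against 0 TPM in replicate 1).

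The other Ugt genes were led by Ugt2b34 (ENSMUSG00000029260.11, chromosome 5, 86889767 to 86906937), at 118 and 119 TPM. It was the highest of all 20 Ugt genes and held 62.1 ± 0.210% of the sum outside Ugt1a. Enzymes of the UGT2B subfamily conjugate steroids, bile acids and drugs, as known mainly from human and rat. Ugt2b5 stood at 49.9 and 52.7 TPM, Ugt2b36 at 16.3 and 16.0 TPM and Ugt2b35 at 2.26 and 2.05 TPM. Ugt2a3, whose human counterpart conjugates bile acids, was detected at 3.0 and 2.55 TPM. The values of these 5 genes did not overlap, Ugt2a3 and Ugt2b35 lying closest. The deposited credibility bounds of this pair did overlap in both libraries. In replicate 1 they ran from 2.48 to 3.43 TPM for Ugt2a3 and from 1.78 to 2.69 TPM for Ugt2b35. Ugt2b1 had 3 and 2 counts (0.05 and 0.03 TPM), and Ugt2b37, Ugt2b38, Ugt2a2, Ugt3a1 and Ugt3a2 had none.

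Along the cluster of Ugt2 and Sult1 genes on chromosome 5 (86889767 to 87591594, 702 kb) 7 of 12 members were detected, with high genes among genes at or near 0. Ugt2b34 stands at one end, with Ugt2b1 as its neighbour. Ugt2b5 (87124960 to 87140318) lies between Ugt2b36 and Ugt2b37, and at the other end Sult1b1 and Sult1d1 are followed by Sult1e1. Ugt2b38 is 97.0% identical to Ugt2b5 over 1590 coding bases (47 differ), and Ugt2b37 is 94.7% identical to it. All counts of this trio were assigned to Ugt2b5, which had 2105 and 2585 counts with a posterior SD of 0.72 and 0.74 counts.

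**Figure D4:**
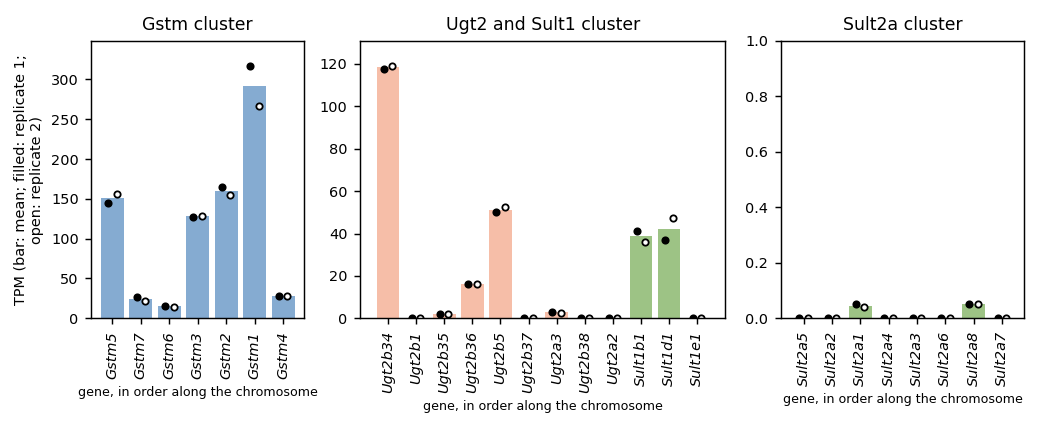
TPM of the genes of 3 clusters in chromosomal order, with bars for the mean, filled circles for replicate 1 and open circles for replicate 2. The vertical scales differ between panels. All 7 Gstm genes carry signal, the Ugt2 and Sult1 cluster mixes genes of up to 119 TPM with genes at or near 0, and no Sult2a gene exceeds 0.05 TPM.

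Gstp1 (ENSMUSG00000060803.5, chromosome 19, 4035407 to 4037985, minus strand) was the highest conjugating enzyme gene. Its product, the pi-class glutathione transferase, detoxifies electrophiles and is known for high levels in fetal and proliferating tissues. It stood at 904 and 882 TPM (893 ± 15.4) and ranked 117 and 123 among all protein-coding genes. It alone held 37.8 ± 0.133% of the cytosolic Gst sum. Its close relative Gstp2 (4040285 to 4046023) stood at 18.5 and 17.3 TPM, and Gstp3 at 7.62 and 5.20 TPM. Gstp1 and Gstp2 differ at 12 of 630 coding bases (98.1% identical), so their division rests on few positions. The first 60 coding bases of both, which hold 6 of the 12, are shown with the differing bases in capitals (GRCm38, minus strand, exons 1 to 3, chr19:4037374-4037863 for Gstp1 and chr19:4041668-4042165 for Gstp2).
Gstp1: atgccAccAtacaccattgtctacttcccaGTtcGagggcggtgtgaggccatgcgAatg
Gstp2: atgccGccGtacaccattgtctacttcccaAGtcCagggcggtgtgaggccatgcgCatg
The posterior SD was 19.9 counts for Gstp1, or 0.140% of its count, and 18.8 counts for Gstp2, or 6.33% of its count in replicate 1. The same absolute uncertainty thus weighed little on Gstp1 and more on Gstp2, and the gap between them was far larger than either. The pseudogene Gstp-ps, which holds 40.6% of the 31-base words of Gstp2, was listed at 10.7 and 9.97 TPM.

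All 7 mu-class genes (Gstm) were detected. They lie within 149 kb of chromosome 3 (107895821 to 108044894) and summed to 797 ± 39.1 TPM. Gstm1 (ENSMUSG00000058135.8, 108012255 to 108017973) led with 317 and 267 TPM. Gstm2 stood at 165 and 154 TPM, Gstm5 at 145 and 156 TPM and Gstm3 at 128 and 128.5 TPM. The order of Gstm2 and Gstm5 turned between the libraries, so their levels were not told apart, whereas Gstm1 was above and Gstm3 below both of them in each library. Gstm4 (28.2 and 27.7 TPM), Gstm7 (26.9 and 21.8 TPM) and Gstm6 (15.9 and 14.2 TPM) formed a lower group. The mu genes are alike in sequence, Gstm1 and Gstm3 being identical at 89.4% of 654 coding bases. The posterior SD nevertheless stayed at 7.40 counts or less in every mu gene, against 387 to 8966 counts per gene. It does not cover genes without an entry among those quantified, such as Gm8834, which shares 24.7% of the 31-base words of Gstm3.

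The alpha-class genes (Gsta), which reduce lipid peroxides and conjugate their breakdown products, were all detected. Gsta1 stood at 86.8 and 86.6 TPM and Gsta4, whose enzyme favours reactive aldehydes such as hydroxynonenal, at 47.6 and 48.8 TPM. Gsta2 stood at 27.5 and 28.5 TPM and Gsta3 at 12.7 and 13.0 TPM. None of these ranges overlapped. Much of the Gsta1 and Gsta2 sequence is shared. Of the 31-base words of Gsta1 92.9% also occur in other genes, most in Gm3776 (80.3%). Gm3776 has no entry under its Ensembl identifier among the quantified genes, so no read could be assigned to it under that identifier. Of the 31-base words of Gsta2 60.7% occur in other genes, with Gm10639 listed at 11.3 and 13.1 TPM. The posterior SD in replicate 1 was 0.602% of the count of Gsta1 and 2.07% of that of Gsta2, below the 6.33% of Gstp2. It does not cover reads that may stem from a gene without an entry, so it does not show that the Gsta1 level is free of Gm3776.

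Gsto1 (ENSMUSG00000025068.7, chromosome 19, 47854970 to 47864790), which can reduce dehydroascorbate and other thiol-linked substrates, reached 359.8 and 373 TPM. It was the second highest cytosolic gene. Gsto2 begins less than 1 kb beyond its end on the same strand and had 24 and 18 counts, or 0.80 and 0.52 TPM. The pair shares no 31-base word, so the contrast does not depend on how reads were divided. Gstz1, the maleylacetoacetate isomerase of tyrosine breakdown, stood at 34.7 and 34.0 TPM. In the theta class Gstt3 stood at 33.5 and 32.5 TPM, Gstt2 at 27.4 and 26.4 TPM and Gstt1 at 13.8 and 12.6 TPM, while Gstt4, in the same cluster on chromosome 10, had 1 and 0 counts.

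The membrane-bound genes were led by Mgst1 (ENSMUSG00000008540.7, chromosome 6, 138140316 to 138156755), a glutathione transferase and peroxidase of the endoplasmic reticulum and the outer mitochondrial membrane. Its level was 396 and 398 TPM, rank 337 among protein-coding genes in both libraries, and it held 59.2 ± 2.54% of the Mgst and Gstk sum. Mgst3, a glutathione-dependent peroxidase, stood at 248 and 207 TPM. Mgst2, which can form cysteinyl leukotrienes, stood at 25.1 and 27.9 TPM, and Gstk1, the kappa-class enzyme of mitochondria and peroxisomes, at 21.8 and 19.8 TPM. Mgst1 exceeded Mgst3 in both libraries by more than the spread of either, and the values of Mgst2 exceeded those of Gstk1 in both without overlap. The deposited credibility bounds of Mgst2 (23.1 to 29.1 TPM) and Gstk1 (19.3 to 23.3 TPM) overlapped in replicate 1 but not in replicate 2.

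Of the Sult genes, 7 of 21 were detected. Sult1d1 (ENSMUSG00000029273.10, chromosome 5, 87554645 to 87569027), which sulfates catecholamines in mouse, stood at 37.1 and 47.3 TPM. Its neighbour Sult1b1 (ENSMUSG00000029269.7, 87513339 to 87538195), which acts on thyroid hormones and phenols, stood at 41.2 and 36.0 TPM. Which of them was higher turned between the libraries, and Sult1d1 held 30.1% and 38.6% of the Sult sum. Sult6b2 stood at 23.0 and 19.4 TPM and Sult5a1 at 9.27 and 8.69 TPM. Sult1a1, a phenol sulfotransferase, stood at 5.08 and 4.59 TPM and the brain-type gene Sult4a1 at 4.73 and 3.89 TPM, ranges that overlapped. Sult2b1, which sulfates cholesterol and other hydroxysteroids, was the lowest detected Sult gene at 2.21 and 2.34 TPM. These values stand for 58 and 72 counts of Sult2b1.

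The remaining 14 Sult genes stayed below 1 TPM. The 8 Sult2a genes, sulfotransferases of hydroxysteroids and bile acids with high levels in adult liver, extend over 870 kb of chromosome 7 (13623967 to 14494230). None exceeded 0.05 TPM. Sult2a1 had 1 count in each library, Sult2a8 had 1 and 3 counts, and Sult2a2, Sult2a3, Sult2a4, Sult2a5, Sult2a6 and Sult2a7 had none. Sult1e1, the estrogen sulfotransferase, had 0 and 1 count, Sult1c2 had 10 counts in each library and Sult6b1 had 3 and 5. Sult1c1, Sult3a1 and Sult3a2 had no count. A count of 0 at this depth does not show that a gene is silent.

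Of the 39 detected genes 25 have several annotated transcripts, and in 24 of those the transcript with the highest mean level is protein-coding. The exception was Sult6b2, where a transcript annotated as subject to nonsense-mediated decay took 63.6% and 63.9% of the gene's output and the coding transcript 36.4% and 36.1%. In 10 genes one transcript held over 90% in both libraries. Mgst1 spread over 3 coding transcripts, with 52.97% and 57.3% on the leading one, 31% and 25.2% on the next and 15.3% and 16.7% on the third. For Ugt1a7c 1 full-length transcript held 85.1% and 91.3%. The leading transcript of Gstp3 changed between libraries, 1 of its 2 coding transcripts taking 70.0% in replicate 1 and 27.6% in replicate 2, at 110 and 86 counts for the gene.

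Sequence shared with other genes bears on 17 of the 39 detected genes, in which over 10% of the 31-base words of the gene's transcripts also occur elsewhere. In 8 genes it was over 50%, and 7 genes shared no word. Shared words were not counted for all protein-coding genes, so whether these counts are unusual was not tested. The posterior SD exceeded 1 count in both libraries for 13 of the 39 genes (Gsta1, Gsta2, Gstm1, Gstm3, Gstm6, Gstp1, Gstp2, Gstt3, Gstz1, Ugt1a1, Ugt1a6a, Ugt1a7c and Ugt1a9), beside 20.6% of the protein-coding genes at 1 TPM or more in either library. In 20 genes it was 0 in both libraries, among them Mgst1, Gsto1, Mgst3 and Sult1d1.

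Between the pools the levels of the conjugating enzymes lay close together. Their ratio is given as the log2 of TPM + 1 in replicate 1 over TPM + 1 in replicate 2. This scale understates the change of low genes, and with 1 library on each side the ratio has no replicate check. None of the 39 genes differed over 2-fold, beside 0.606% of 13859 protein-coding genes at 1 TPM or more in either library. The ratios ran from -0.34 for Sult1d1 to 0.48 for Gstp3. Their median was 0.04 in the conjugating enzymes and -0.02 in all protein-coding genes, and the median size regardless of sign was 0.09 and 0.11. Of the 39 genes 26 were higher in replicate 1 and 13 lower, while 44.0% of the 13859 protein-coding genes were higher in replicate 1 (6098 higher, 7716 lower).

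For 27 genes the exact 95% interval of the count ratio, per gene count of the library, held 0 on the log2 scale. It lay above 0 for 11 genes and below 0 for Sult1d1 alone, at -0.36 (-0.44 to -0.28). Over the 13859 protein-coding genes 42.0% had an interval without 0 and 20.4% one above 0. Among the conjugating enzymes the highest ratio was that of Gstp3 at 0.60 (0.18 to 1.03), followed by Ugt1a9 at 0.52 (0.28 to 0.76) and Ugt1a6a at 0.32 (0.13 to 0.51). Gstm1 and Mgst3, which had 5770 to 8966 counts per library, both stood at 0.28 (0.24 to 0.33 and 0.23 to 0.34). The intervals cover counting error only, and for genes that share reads not the division between genes. Markers of pancreas (2.88-fold), adrenal and gonad (5.37-fold), stomach (1.41-fold) and liver (1.40-fold) were higher in replicate 1 by their summed level. Over 2-fold apart were 5 of 6 pancreas markers, 4 of 6 adrenal and gonad markers, 1 of 6 stomach markers and 0 of 8 liver markers. The share was 0.606% among the 13859 protein-coding genes at 1 TPM or more in either library. Of the 8 liver markers 6 were detected, led by Trf (235.5 and 160.4 TPM) and Afp (190.02 and 143 TPM), with Alb at 66.7 and 42.5 TPM, while Tat had no count and Cyp2e1 stood at 0.27 and 0.19 TPM. The part of these other tissues in the ratios of the conjugating enzymes was not tested. Gut epithelium markers and blood and macrophage markers each differed by 1.11-fold, and smooth muscle markers by 0.988-fold. Mesenchyme markers (0.882-fold) and enteric neuron markers (0.915-fold) were lower in replicate 1.

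**Figure D5:**
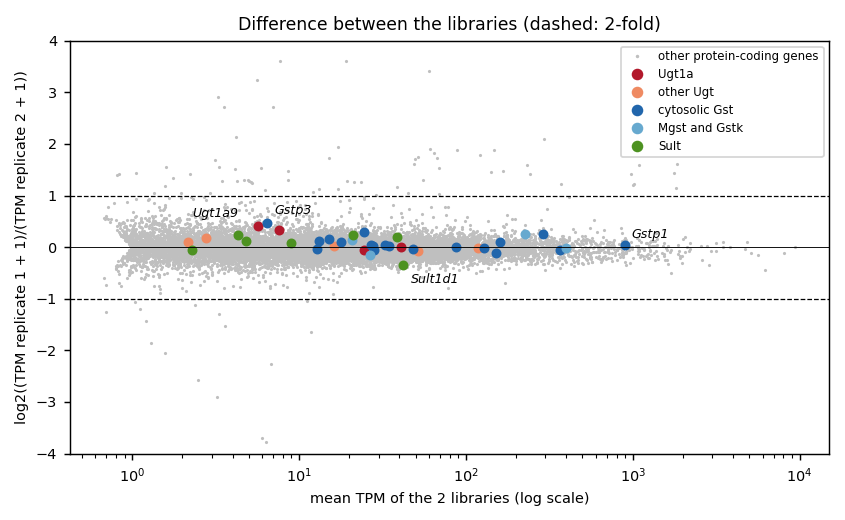
Log2 ratio of replicate 1 to replicate 2 (TPM + 1) against mean TPM (log scale) for protein-coding genes at 1 TPM or more in either library, grey for other genes and coloured by family for the 39 conjugating enzyme genes. All coloured points lie between the dashed 2-fold lines, from -0.34 (Sult1d1) to 0.48 (Gstp3).

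The listed genes that make, use and handle the co-substrates were nearly all detected, beside 62.7% of all protein-coding genes. These lists were chosen with earlier results of these data known. All 6 genes on the list for UDP-glucuronic acid and glucuronides were, led by Ugdh, the dehydrogenase that makes UDP-glucuronic acid, at 168 and 179.6 TPM. Slc35b1, a nucleotide transporter of the endoplasmic reticulum, stood at 90.2 and 86.4 TPM and Ugp2, which makes UDP-glucose, at 82.96 and 97.0 TPM. All 13 glutathione genes were detected, with glutathione reductase Gsr at 112 and 123 TPM, glutathione synthetase Gss at 83.6 and 75.1 TPM and Gclm, the modifier subunit of the rate-limiting ligase, at 55.5 and 57.5 TPM. The catalytic subunit gene Gclc stood lower, at 10.5 and 11.1 TPM. Of 12 genes of PAPS and sulfate 10 were detected, and Sts was not analysed here. Bpnt1, which removes the spent product of the sulfate donor, stood at 189.97 and 173 TPM, the PAPS synthetase Papss1 at 118 and 124 TPM and the PAPS transporter Slc35b2 at 65.4 and 66.1 TPM. The sulfate carriers Slc13a1 (0.15 and 0.25 TPM) and Slc13a4 (0.59 and 0.45 TPM) stayed below 1 TPM. No gene of these lists differed over 2-fold between the pools, beside 0.606% of protein-coding genes at 1 TPM or more in either library.

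All 12 listed regulators of conjugating enzymes were detected, beside 62.7% of all protein-coding genes. Nfe2l2, which encodes the oxidant-responsive factor Nrf2, stood at 74.2 and 78.4 TPM, Hnf4a at 71.2 and 71.0 TPM and Keap1, the inhibitor of Nrf2, at 49.7 and 46.6 TPM. The xenobiotic receptors were lower: Nr1i2 (pregnane X receptor) stood at 10.9 and 10.2 TPM, Nr1i3 (constitutive androstane receptor) at 8.73 and 7.65 TPM and Ahr, the dioxin receptor, at 7.19 and 7.23 TPM. Of 9 known Nrf2 targets outside the 3 families 8 were detected, led by the peroxiredoxin gene Prdx1 at 1184 and 1299.8 TPM and the thioredoxin reductase gene Txnrd1 at 87.9 and 80.8 TPM. The cystine carrier gene Slc7a11 stayed at 0.22 and 0.12 TPM. These are levels in 1 tissue at 1 age, so how they move with the conjugating enzymes was not tested.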

How the data were processed

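The authors deposited a gene and a transcript table for each library, in the column layout that RSEM writes. Neither quantifier nor aligner is named in these sources. The deposited readme states assembly mm10 with GENCODE M4. Libraries were made from 10 ng of mirVana-extracted RNA longer than 200 bases, per the labels' protocols. Per the file headers, the authors give expected counts, with a posterior SD of the count and credibility bounds of TPM, both treated as a score. Per the file headers they also give TPM and FPKM, TPM once as a maximum-likelihood estimate and once as a posterior mean, and the percent of a gene's output on each transcript. TPM is scaled over all entries, ERCC spike-ins included, which took 2.16% and 1.76% of counts. Entries other than the 43346 Ensembl genes were left out.

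From these values sums, shares and ratios were computed with Python 3.11.15, pandas 2.3.3 and scipy 1.17.1. GENCODE M21 on GRCm38 supplied symbols and positions, matched by Ensembl identifier without version. Shared sequence was found as 31-base words of M21 transcripts, and coding identity was taken position by position between sequences of equal length. Scaling factors of edgeR 4.0.16 (TMM) and DESeq2 1.42.0 in R 4.3.3, on expected counts rounded to whole numbers, served as alternatives only. With 1 group of 2 libraries no differential test was possible. Text names every gene at 1 TPM in either library, every Ugt1a gene and the other members by class. Of each further list it names up to 3 of the highest and up to 3 undetected genes. Other genes of those lists that are named were added after their values were seen. Not every gene of the lists is reported here. Sequence motifs before the start sites were also searched, and no result of that search is reported here. The rule for members uses gene symbols alone, but the families and the lists were chosen with earlier results of these data known. Alternatives covered detection limit, unit, pseudocount, scaling and leaving out a library.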

Additional observations from a re-analysis of the deposited data

How the results depend on the processing

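The number of detected genes stayed at 39 with FPKM, posterior mean TPM, a minimum of 10 counts or either library alone, and was 40 at a limit of 0.5 TPM and 33 at 5 TPM. The summed levels follow the unit. As FPKM they were 54.8 for Ugt1a, 131.9 for other Ugt, 1635 for cytosolic Gst, 464.7 for Mgst and Gstk and 84.9 for Sult. With TPM rescaled to Ensembl genes alone they were 82.7, 199.2, 2468, 701.5 and 128.2 in the same order, since spike-ins no longer count in the total. As posterior mean TPM other Ugt summed to 187.8 and Ugt2b34 held 61.7% of it. The other shares of the highest gene moved by less than 1 SD with unit or scaling. With n = 2, either library alone must lie within 1 SD of the mean, so leaving one out says nothing about stability of sums and shares. With a pseudocount of 1 in place of 0.1, 0 Ugt1a genes differed over 1.5-fold between the estimates, and 1 did from the transcript tables or in either library alone. No member differed over 2-fold between libraries under the 5 alternatives tried. One of these dropped the filter on low values and kept the pseudocount of 1. The genes it adds reach at most 0.8 TPM and could not differ over 2-fold on that scale, so its result says nothing. Under 4 settings 41 of 44 single ratios stayed within their counting intervals (164 values). The other 3 genes have a count of 0 and no interval; at a pseudocount of 0.1 the ratio of Ugt1a10 was -0.58 in place of -0.07, that of Ugt1a5 0.68 in place of 0.08 and that of Ugt1a8 0. The settings gave a median over the 39 detected genes of 0.04 to 0.05 and 25 or 26 higher in replicate 1. The ratio of the Ugt1a sums holds no pseudocount, so that alternative was not run. No paired analysis was possible because the libraries form 1 group. Depth limits the 12 genes with few counts, and n = 2 limits every SD.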

Other observations

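Of 18 listed genes of other conjugation and related reactions 14 were detected, beside 62.7% of all protein-coding genes. Ephx2, the soluble epoxide hydrolase, stood at 51.6 and 46.6 TPM and Tpst1, a protein tyrosine sulfotransferase, at 44.4 and 50.1 TPM. The arylamine acetyltransferase genes lay apart, with Nat2 at 7.08 and 7.37 TPM and Nat1 at 0.13 and 0.09 TPM. Glyat, which conjugates glycine to acyl groups, stood at 0.26 and 0.13 TPM, and Baat, which conjugates bile acids to amino acids, at 0.27 and 0.37 TPM. Inmt stood at 0.51 and 0.18 TPM. No gene of the list differed over 2-fold between the libraries, beside 0.606% of protein-coding genes at 1 TPM or more in either library.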
